A study of Mus musculus with 2 samples.

Results

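The secretory pathway genes described here are 80 of the 26061 gene symbols in an RNA-seq table of mouse extraembryonic endoderm stem (XEN) cells. They were picked by symbol, and the rule used no measured value, but it was set with earlier results of these data known. They are the Srp subunits of the signal recognition particle, the Sec61, Sec62 and Sec63 translocon genes, and Ssr, Spcs and Sec11 genes. Also included are the COPII and COPI coat genes, the Arf and Sar1 GTPases, the Tmed and Lman cargo receptors, the Sec22 SNAREs and the Trappc tethers. PS10, a female XEN line of ICR strain that models the primitive endoderm lineage, was transfected with a lipid reagent carrying either a control locked nucleic acid (LNA) oligonucleotide or one directed against Gata6-AS, the antisense transcript beside the endoderm regulator Gata6. The sample titles write siRNA for both. Cell line and transfection are shared, the time after transfection was not found in the labels, and each group holds 1 library. The 2 libraries are called control and depleted below. With no replicate, every difference compares these libraries and not the conditions, and none carries a test.

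Proteins bound for the endoplasmic reticulum (ER) are recognised by the signal recognition particle as they leave the ribosome and are threaded through the Sec61 channel, where signal peptidase removes their signal peptide. Vesicles with a COPII coat, built on the GTPase Sar1, carry folded cargo out of the ER, and vesicles with a COPI coat, built on the GTPase Arf1, return escaped proteins from the Golgi. Parietal endoderm, a derivative of the lineage that XEN cells model, secretes a thick basement membrane and is known for a well developed rough ER.

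The library labels were first checked against markers and the target. All 9 XEN markers examined were expressed, from 31.03 to 2104 RPKM (reads per kilobase of gene and per 1e+06 reads) under the control LNA and from 35.9 to 1689 RPKM under the Gata6-AS LNA. Of these, 7 were lower in the depleted library, down to Sox7 at 145 and 59.4 RPKM; whether this bears on the genes below was not tested. The embryonic stem cell factors Sox2 and Esrrb were listed at 0 in both libraries, with Pou5f1 at 0.0556 and 0.0541 RPKM, and Nanog at 4.61 and 5.07 RPKM. The 5 fibroblast markers reached 0.0136 RPKM at most, and the trophoblast factor Cdx2 stood at 0.653 and 1.19 RPKM. Gata6-AS, listed as 1010001N08Rik, was at 10.1 and 5.83 RPKM (57.8%), and Gata6 at 81.9 and 55.7 RPKM. The table's values correspond to a depth of 1.04e+08 and 1.23e+08 reads for control and depleted, so 1 RPKM over a kilobase is 104 and 122.9 reads. In RNA from whole cultures, fewer cells of a type and less RNA per cell cannot be told apart.

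Of the 80 genes, 75 averaged 1 RPKM or more and are compared below. The other 5, Lman1l, Sec16b, Sec31b, Tmed6 and Tmed11, had means of 0.0742 RPKM or less. Sec16b and Tmed11 were listed at 0 in both libraries. The 75 genes were well expressed, with a median level of 27.6 RPKM against 7.71 RPKM for all 10853 genes tested. The highest levels belonged to the TRAP subunit Ssr2 and the p24 cargo receptor Tmed9, and 5 genes exceeded 100 RPKM in both libraries: Ssr2, Tmed9, Arf1, Tmed2 and Arf4. All 80 together summed to 2862 and 3009 RPKM (control, then depleted, as in all pairs below), or 1.09% and 1.12% of the table.

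The machinery as a whole stayed close to its control level. Differences are those of log2(RPKM + 1), depleted minus control. Their median over the 75 genes was 0.06, against 0.05 over all genes tested, and 47 of the 75 lay above 0 (62.7%, against 58% of all genes tested). One gene, Copz1 of the COPI coat, was at least 1.5-fold higher, and none was 1.5-fold lower. Among all genes tested 3.43% were at least 1.5-fold higher and 1.94% lower (5.37% in either direction), so 1 of 75 (1.33%) lies under the background. None passed 2-fold in either direction, where the background is 0.332% higher and 0.451% lower (0.783% in either direction). Within 1.2-fold of control lay 60 of the 75 genes (80.0%), against 68.9% of all genes tested. With a mean of at least 5 RPKM the shares were 77.9% of 68 members and 67.1% of all genes. The spread was narrower too, with a standard deviation across genes of 0.20 against 0.30.

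**Figure D1:**
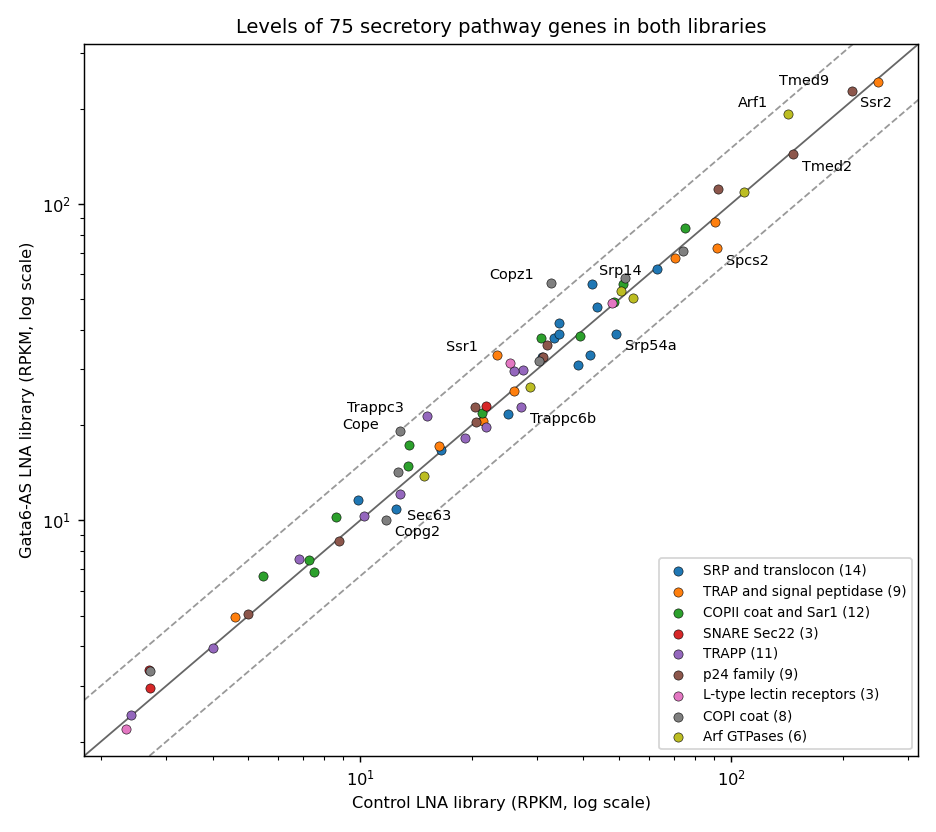
RPKM of the 75 genes in the control library (horizontal) and the Gata6-AS LNA library (vertical), both on log scales, coloured by role, with the number of genes in each role in brackets. The solid line marks equal levels and the dashed lines a ratio of 1.5; Copz1 lies above the upper line (32.6 and 56.3 RPKM), Cope just under it (12.8 and 19.1 RPKM), and no gene lies beyond the lower line.

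In the authors' deposited table of differing genes, 4 of the 75 genes were listed, all as higher in the depleted library: Copz1, Cope, Ssr1 and Trappc3. Of all genes tested, 11.9% are in that table, 6.24% as higher and 5.69% as lower, so the 4 of 75 (5.33%) are again no more than the background. The authors' deposited table gives log2 differences of 0.79 for Copz1 (p = 0.00730) and 0.55 for Cope (p = 0.0218). For Ssr1 the authors' deposited table has 0.56 (p = 0.0545), and for Trappc3 it has 0.45 (p = 0.0644). Their test compared the same 2 libraries, and the sources used here do not describe it.

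These 4 genes come from 3 different machines, and their upstream sequence is shown for comparison. The runs below are the 250 bases before the RefSeq start, 5′ to 3′ on the gene's strand, in GRCm38.p6. They lie at chr15:103272638-103272887 (plus strand) for Copz1, chr8:70302517-70302766 (plus) for Cope, chr13:37994209-37994458 (minus) for Ssr1 and chr4:126262155-126262404 (plus) for Trappc3. Capitals mark the cyclic AMP response element TGACGTCA in Cope and the letters ACGTG, on either strand, in Ssr1. The other runs hold no capitals because none of the motifs searched lies in them.
Copz1: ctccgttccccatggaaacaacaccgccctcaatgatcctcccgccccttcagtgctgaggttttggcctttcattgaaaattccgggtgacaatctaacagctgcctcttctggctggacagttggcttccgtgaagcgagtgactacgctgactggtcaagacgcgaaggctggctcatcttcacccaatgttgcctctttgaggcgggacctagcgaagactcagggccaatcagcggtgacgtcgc
Cope: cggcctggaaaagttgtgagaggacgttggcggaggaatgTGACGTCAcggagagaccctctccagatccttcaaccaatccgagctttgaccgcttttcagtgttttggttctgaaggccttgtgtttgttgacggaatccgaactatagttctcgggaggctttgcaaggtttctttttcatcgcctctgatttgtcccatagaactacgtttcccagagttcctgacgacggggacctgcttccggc
Ssr1: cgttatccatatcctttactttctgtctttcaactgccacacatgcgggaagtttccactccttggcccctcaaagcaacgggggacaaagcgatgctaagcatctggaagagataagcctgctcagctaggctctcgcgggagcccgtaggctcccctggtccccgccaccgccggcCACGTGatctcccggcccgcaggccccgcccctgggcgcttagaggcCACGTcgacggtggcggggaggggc
Trappc3: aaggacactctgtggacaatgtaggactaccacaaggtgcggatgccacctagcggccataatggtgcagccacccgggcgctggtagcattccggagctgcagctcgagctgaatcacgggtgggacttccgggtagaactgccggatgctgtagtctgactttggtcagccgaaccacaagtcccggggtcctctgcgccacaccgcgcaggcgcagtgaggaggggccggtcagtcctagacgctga

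Entry into the ER starts with the signal recognition particle, and its subunits did not share a direction. Srp14, which with Srp9 forms the domain that slows the ribosome, stood at 42.2 and 55.8 RPKM, 132% of control (exact 95% interval 128% to 137%). Srp9 stood at 34.4 and 38.8 RPKM, 113% of control. Both genes of that domain were thus higher, as was Srp19, which helps assemble the particle, at 9.87 and 11.6 RPKM (118%). The heterodimer of Srp68 and Srp72, by contrast, was split: Srp68 stood at 34.3 and 42.1 RPKM (122.8%) and Srp72 at 25.03 and 21.8 RPKM (86.9%). The intervals of the 2 partners, 120% to 126% and 85.0% to 88.9%, do not overlap. Intervals here are Clopper-Pearson intervals from the least number of reads that fits both values, and they cover counting error only.

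Srp54, the GTPase that binds the signal peptide, is carried in the table by 3 near-identical copies, and all were lower. Srp54a stood at 48.8 and 38.9 RPKM (79.8% of control), Srp54b at 38.6 and 31.1 RPKM (80.5%) and Srp54c at 41.8 and 33.2 RPKM (79.6%). In GENCODE transcripts, 70.5% of the 50-base stretches of Srp54a, 89.3% of those of Srp54b and 93.9% of those of Srp54c also occur in another gene, in each case another copy, so the 3 values are not separate measurements. The sources used here do not say how reads with several matches were counted. The other genes with over 10% of such stretches shared were Tmed11, Sec61b, Sec61g, Tmed7 and Arf1, at 18.1%, 17.4%, 14.3%, 12.1% and 10.5%, and 70 of the 80 shared under 5%.

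The channel itself was near its control level. Sec61a1, the pore subunit, stood at 43.5 and 47.3 RPKM (109% of control) and its paralog Sec61a2 at 16.5 and 16.6 RPKM (101%). The small subunits Sec61b and Sec61g stood at 33.3 and 37.6 RPKM (113%) and at 30.97 and 32.7 RPKM (106%). All of these were at or above control, though the interval of Sec61a2, 97.8% to 104%, lies on both sides of it. Sec62, a partner for post-translational import, stood at 63.03 and 62.4 RPKM (98.9%). Its interval, 97.1% to 101%, also lies on both sides of control. Its partner Sec63, the J-domain protein that recruits the chaperone BiP, was lower, at 12.5 and 10.8 RPKM (86.6%, 84.4% to 88.8%). Over the 14 genes of the particle and the translocon the median difference was 0.05, the same as that of all genes tested. With Srp54 counted once it was 0.10. Of the 14, 8 were above 0 and 6 below, where 58% of all genes tested were above 0, and none was past 1.5-fold.

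TRAP, which sits beside Sec61 and helps some signal sequences open the channel, had 1 subunit apart from the rest. Ssr1 stood at 23.3 and 33.4 RPKM, a difference of 0.50 and 143% of control (138% to 148%), at percentile 94.6 of all genes tested. The mm9 coordinates of Ssr1 are chromosome 13 from 38063270 to 38086059 on the minus strand. The other 3 subunits were slightly under control. Ssr2 stood at 249 and 243 RPKM (97.4%), Ssr3 at 90.6 and 87.6 RPKM (96.7%) and Ssr4 at 21.4 and 20.5 RPKM (95.8%). Their intervals run from 92.7% to 99.1% in all and leave a wide gap to that of Ssr1.

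Signal peptidase showed the most negative difference of the 75 genes. Spcs2, a subunit outside the catalytic site, stood at 91.7 and 72.3 RPKM, a difference of -0.34 and 78.9% of control (77.0% to 80.9%), at percentile 7.28. Its companion Spcs1 stood at 70.5 and 67.4 RPKM (95.6%), and Spcs3, which is needed for cleavage, at 25.97 and 25.6 RPKM (98.7%). The catalytic subunits lay on the other side of control: Sec11a at 16.3 and 17.1 RPKM (105%) and Sec11c at 4.60 and 4.95 RPKM (108%). Over the 9 TRAP and signal peptidase genes the median was -0.04, with 3 above 0 and 6 below. Of all genes tested, 58% were above 0.

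**Figure D2:**
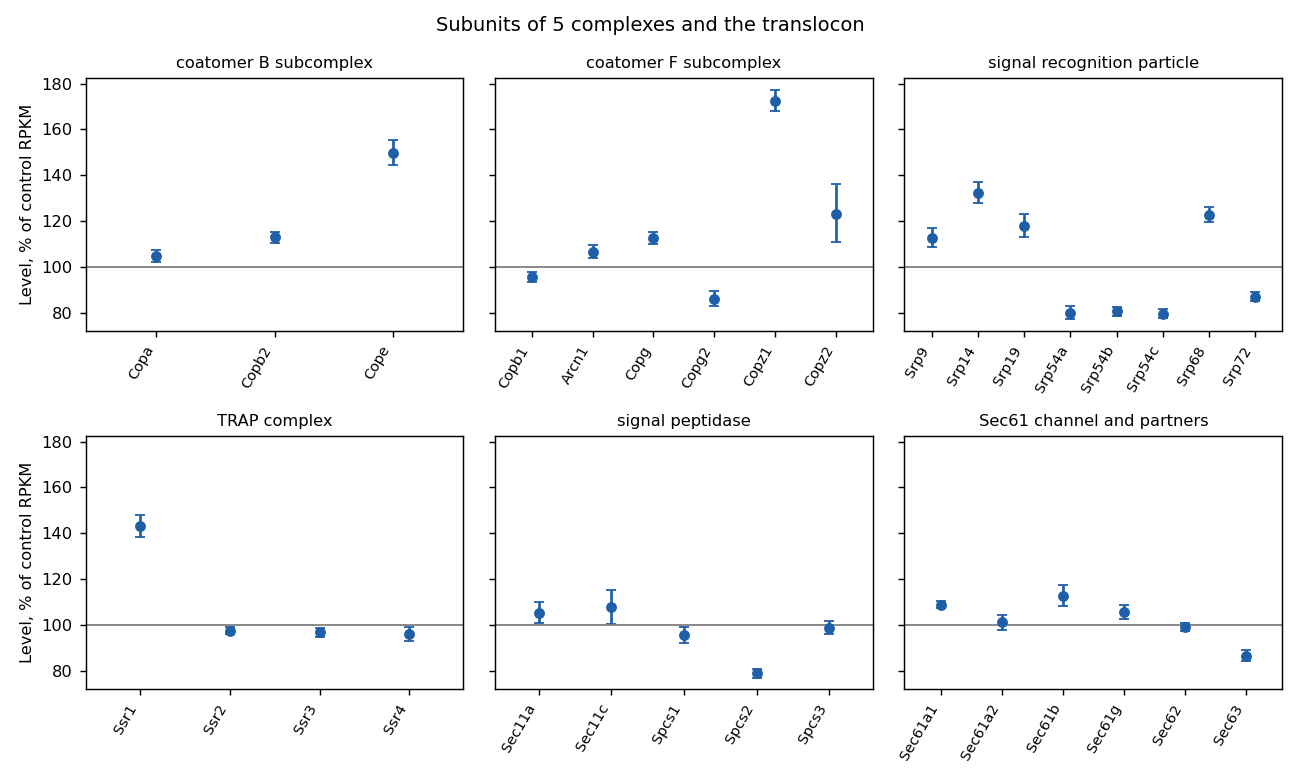
Level in the Gata6-AS LNA library as a percentage of the control RPKM (vertical) for each subunit (horizontal) of both coatomer subcomplexes, the signal recognition particle, TRAP, signal peptidase and the translocon. Points are ratios and bars exact 95% intervals for counting error only; Ssr1 (143%), Cope (150%) and Copz1 (173%) stand clear of the other subunits of their complexes, and Arcn1 is a coatomer subunit that the choice by symbol did not include.

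The COPII coat, which forms the vesicles that leave the ER, lay mostly above control. Of 12 measured genes 10 were above 0, against 58% of all genes tested, and none was past 1.5-fold. Among those above 0, Sec24b, Sec23a and Sar1a lay at 0.04, 0.03 and 0.02, under the median of all genes tested. They fall below 0 when that median is set to 0. The median difference was 0.13, against 0.05 over all genes tested, and 0.08 with the median of all genes set to 0. Sec24d, a cargo-binding subunit, stood at 13.6 and 17.3 RPKM, 128% of control (123.4% to 132%), the most positive difference of the coat at 0.33. The outer coat gene Sec31a followed at 30.8 and 37.6 RPKM (122%), then Sec24a at 5.46 and 6.66 RPKM (122%) and Sec23b at 8.59 and 10.3 RPKM (120%). Sec23a, which like Sec23b activates the Sar1 GTPase, stood at 21.3 and 21.8 RPKM (102%). The highest level was that of Sec24c, at 75.2 and 84.2 RPKM (112%). Sec13, the partner of Sec31a, stood at 51.1 and 55.7 RPKM (109%) and the adaptor Sec23ip at 13.5 and 14.8 RPKM (110%). The genes that start coat assembly were closer to control. Sar1a stood at 48.4 and 49.0 RPKM (101%), Sar1b at 39.1 and 38.3 RPKM (97.9%), and the scaffold of ER exit sites, Sec16a, at 7.52 and 6.85 RPKM (91.0%), the most negative difference of the coat at -0.12.

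Several COPII subunits come as paralogs, and their shares per length differed by at most 3.29 percentage points between the libraries. Sec24c held 74.1% of the summed RPKM of the Sec24 genes under the control LNA and 72.8% under the Gata6-AS LNA, while Sec24d went from 13.4% to 14.98%, Sec24b from 7.16% to 6.50% and Sec24a from 5.38% to 5.76%. Sec23a held 71.3% and 68.0% of its pair, and Sec23b the rest. Sar1a held 55.3% and 56.1% of the Sar1 pair. Sec24a and Sar1b lie head to head on chromosome 11 in mm9, with starts 53 bp apart, and their levels were far apart, 5.46 against 39.1 RPKM under the control LNA. Their differences had opposite signs, 0.25 for Sec24a and -0.03 for Sar1b.

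**Figure D3:**
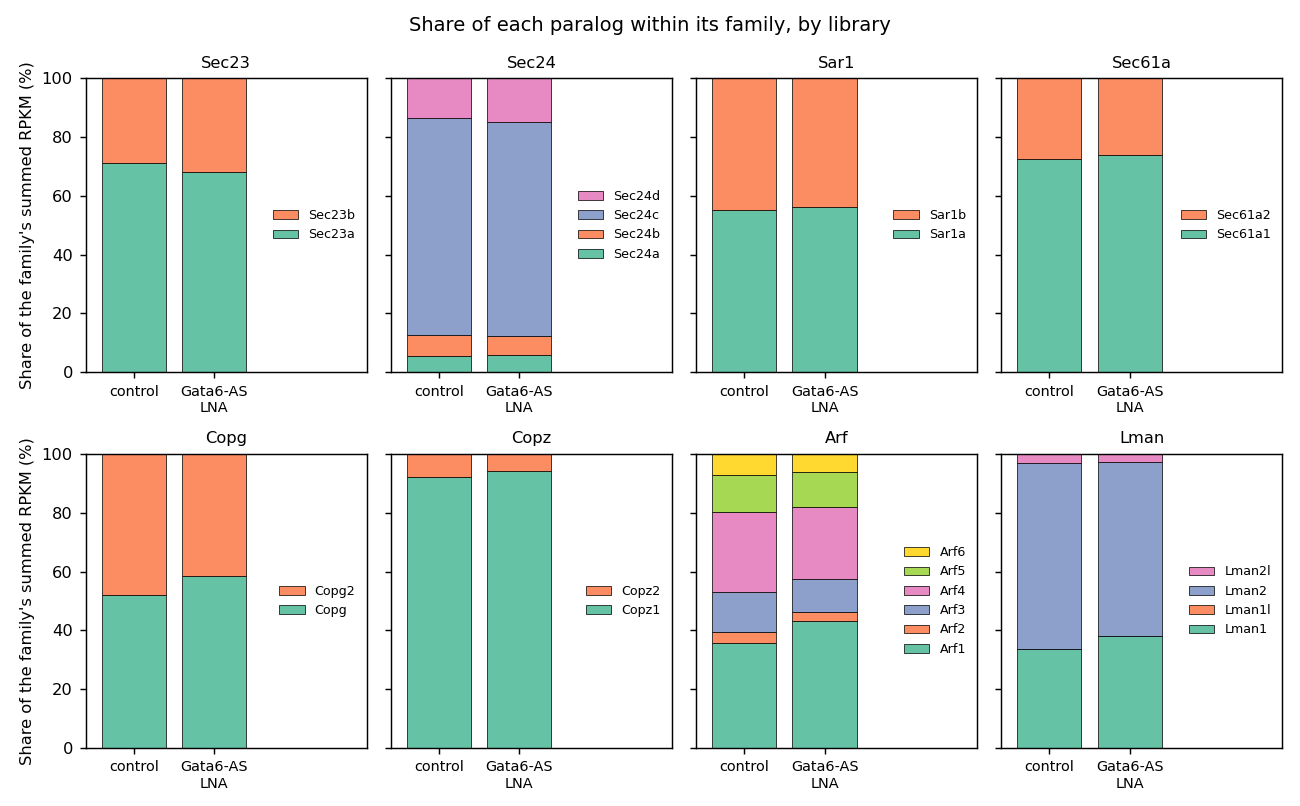
Share of a family's summed RPKM held by each paralog (vertical, percent), with a bar for the control and a bar for the Gata6-AS LNA library in each of 8 families. Shares differed by 7.51 percentage points at most, for Arf1 within the Arf genes (35.7% to 43.2%), and Sec24c, Sec23a, Sec61a1, Copz1 and Lman2 stayed the leading paralogs of their families.

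Cargo receptors hold soluble proteins in the forming vesicle. Lman1, a lectin that works with Mcfd2 to carry coagulation factors, stood at 25.4 and 31.4 RPKM, 124% of control (121% to 126%). Mcfd2, which is outside the rule, stood at 20.9 and 26.7 RPKM, 128% of control (123.3% to 132%), so both parts of this receptor were higher by a similar factor. The related lectins were near control, with Lman2 at 47.7 and 48.6 RPKM (102%) and Lman2l at 2.33 and 2.20 RPKM (94.1%). Lman1 thereby went from 33.6% to 38.2% of the summed RPKM of the Lman genes.

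The p24 proteins (Tmed) cycle between ER and Golgi as hetero-oligomers and carry, among others, proteins with a lipid anchor. Tmed10 stood at 92.3 and 111 RPKM, 121% of control (119% to 122%), the most positive of the family. Tmed2, its usual partner, stood at 147 and 143 RPKM (97.6%), the most negative. Tmed9, the most abundant, stood at 211 and 228 RPKM (108%). The remaining measured members, Tmed1, Tmed3, Tmed4, Tmed5, Tmed7 and Tmed8, lay between 98.0% (Tmed5) and 112% (Tmed1) of control. Of the 9 measured members 6 were above 0, against 58% of all genes tested, with a median of 0.07 and none past 1.5-fold. Tmed6 stood at 0.0448 and 0.104 RPKM, and Tmed11 was listed at 0.

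Vesicles are tethered by the TRAPP complexes and fused by SNAREs. Trappc3, a core subunit, stood at 15.1 and 21.4 RPKM, a difference of 0.47 and 141% of control (135% to 148%), at percentile 93.9. It lies on chromosome 4 of mm9 from 125939569 to 125953127 on the plus strand. None of the other measured TRAPP genes differed by as much, and they lay on both sides of control. Trappc4 stood at 21.8 and 19.7 RPKM (90.3%), Trappc6b at 27.2 and 22.8 RPKM (83.8%, the most negative of the complex) and Trappc6a at 19.2 and 18.2 RPKM (95.1%). Trappc1, the most abundant TRAPP gene, stood at 27.4 and 29.8 RPKM (109%), Trappc2l at 25.99 and 29.6 RPKM (114%) and Trappc5 at 6.85 and 7.57 RPKM (110%). Trappc2, Trappc8, Trappc9 and Trappc10 lay between 94.2% and 101% of control. The 11 genes had a median of 0.01. The SNARE Sec22b stood at 21.8 and 23.1 RPKM (106%), and Sec22c, at 2.69 and 3.38 RPKM (125%), was the most positive of the 3 Sec22 genes. All 3 were above 0, as were 58% of all genes tested.

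Some of these genes overlap others, and the use of strand in counting was not found in the sources. A gene on the opposite strand that is itself expressed overlaps 13 of the 80, among them Sec24d (Mettl14, 5.34 and 6.44 RPKM), Copg (Gm16723, 9.88 and 11.8 RPKM) and Spcs1 (Glt8d1, 28.6 and 27.4 RPKM), whose values are uncertain for this reason. Trappc2l shares bases on its own strand with Gm20388 (54.0 and 53.1 RPKM). The span of Srp54b overlaps on its own strand that of Srp54a over 33124 bp. It also overlaps Fam177a (10.4 and 8.60 RPKM) over 17551 bp. Sec11a with Nmb, Sec31b with Ndufb8 and Tmed7 with Ticam2 overlap on the same strand too. None of Copz1, Cope, Ssr1, Trappc3 and Arf1 has such an overlap.

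The COPI coat had the highest median of the role groups, 0.16, and held the 2 most positive differences of all 75 genes. Copz1, the small zeta subunit, stood at 32.6 and 56.3 RPKM, a difference of 0.77 and 173% of control (168% to 177%), at percentile 98.9 of all genes tested. In mm9 it lies on chromosome 15 from 103103342 to 103130293 on the plus strand. Cope, the epsilon subunit, stood at 12.8 and 19.1 RPKM, a difference of 0.55 and 150% of control (144% to 155%), at percentile 95.9. It lies on chromosome 8 of mm9 from 72826417 to 72836892 on the plus strand, and Ddx49, a helicase gene read in the other direction from a start 29 bp away, stood at 6.98 and 10.2 RPKM (146%). There were 13 such head-to-head pairs within 1000 bp whose neighbour is expressed. Sec24a and Sar1b are counted from each side, and the neighbour 2700097O09Rik with both Srp54a and Srp54b. Member and neighbour lay on the same side of 0 in 2 of the 13, Cope with Ddx49 and Tmed5 with Ccdc18. The share over all such pairs of genes was not computed, so the count cannot be called low or high. Some signs rest on values near 0, such as Tmed7 at -0.003 with Eif1a at 0.02.

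The other subunits of the coat were closer to control than Copz1 and Cope. In the outer subcomplex, which also contains Cope, Copa stood at 30.4 and 31.8 RPKM (105%) and Copb2 at 51.7 and 58.3 RPKM (113%). In the inner subcomplex, which contains Copz1, Copb1 stood at 74.2 and 70.8 RPKM (95.5%) and the delta subunit Arcn1, outside the rule, at 35.6 and 37.9 RPKM (107%). The 2 gamma paralogs went apart: Copg stood at 12.7 and 14.2 RPKM (112%) and Copg2 at 11.7 and 10.1 RPKM (85.9%), so that Copg went from 52.0% to 58.6% of their sum. That sum was 24.4 and 24.3 RPKM. The second zeta gene, Copz2, was scarce, at 2.72 and 3.34 RPKM (122.8%). Of the 8 genes, 6 were above 0, against 58% of all genes tested, and Copz1 alone passed 1.5-fold.

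Arf1, the GTPase that recruits COPI, stood apart from the other Arf genes. It stood at 142 and 192 RPKM, a difference of 0.43 and 135% of control (132% to 137%), at percentile 91.9. Arf4, which shares work with Arf1 at the Golgi, stood at 108 and 109 RPKM (101%), Arf5 at 50.4 and 52.9 RPKM (105%) and Arf3 at 54.4 and 50.5 RPKM (92.9%). Arf2 stood at 14.8 and 13.8 RPKM (92.8%) and Arf6, which acts at the plasma membrane, at 28.8 and 26.4 RPKM (91.8%). The median of the 6 genes was thus -0.05 although their summed level was 111% of control.

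**Figure D4:**
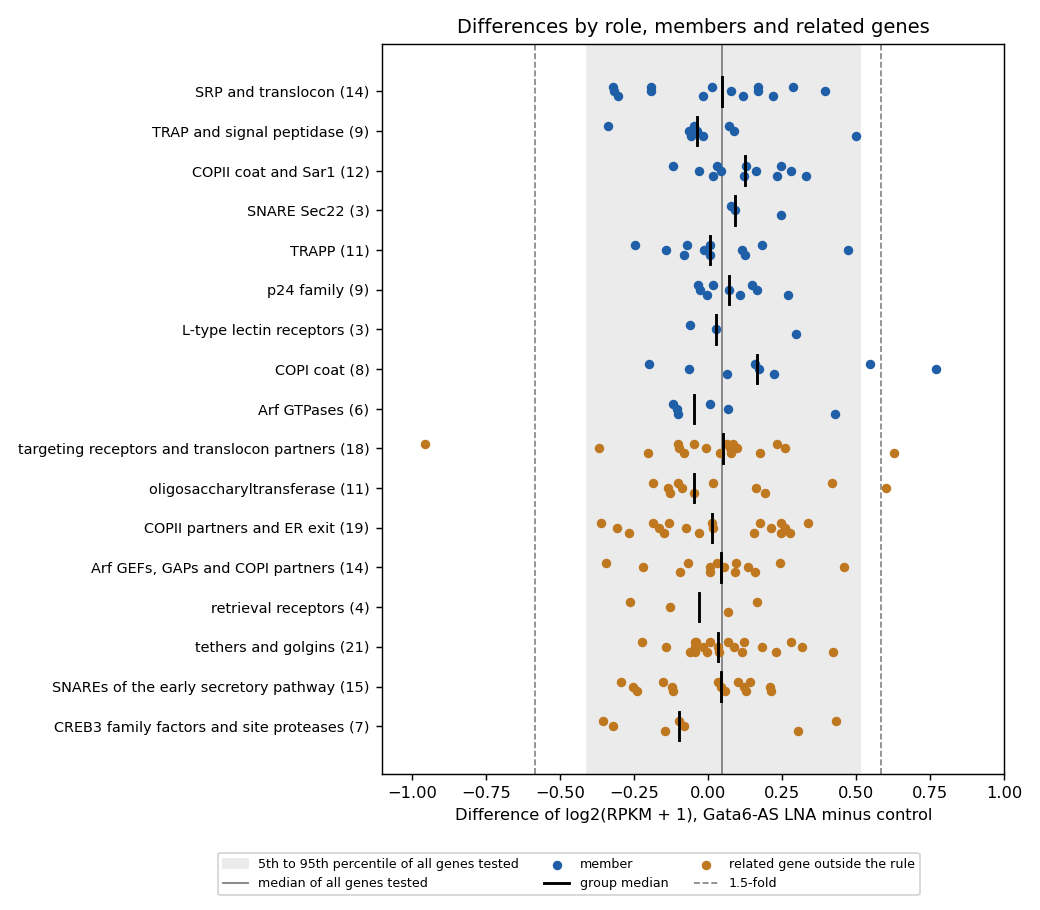
Difference of log2(RPKM + 1), Gata6-AS LNA minus control, for each member (blue) by role and for related genes outside the choice by symbol (orange), with the number of genes in brackets and a black bar at each group's median. The grey band is the 5th to 95th percentile of all genes tested (-0.41 to 0.51) and dashed lines mark 1.5-fold; Copz1 is the only blue point beyond a dashed line, and Tram2, Wrb and Dad1 are the orange ones.

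Genes that work with these machines but carry other names gave a similar picture. Of 109 such genes measured in 8 lists, 2 were at least 1.5-fold higher and 1 was 1.5-fold lower, beside the background of 3.43% and 1.94%, and their median was 0.02. Tram2, a translocon-associated protein linked to collagen synthesis, had by far the most negative difference, -0.96, at 15.2 and 7.37 RPKM. That is 48.4% of control (46.8% to 49.9%). Dad1, a subunit of the oligosaccharyltransferase, stood at 11.1 and 17.3 RPKM (156%), and Wrb, a receptor for tail-anchored proteins, at 1.51 and 2.88 RPKM (191%). The 18 targeting receptors and translocon partners had a median of 0.05 and the 11 oligosaccharyltransferase genes one of -0.05.

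The other lists held no gene past 1.5-fold on the log2(RPKM + 1) scale, where Creb3l4 falls short only through the added 1. Among 19 COPII partners (median 0.01), the cargo adaptor Ctage5 stood at 19.2 and 14.7 RPKM (76.7%) and Mcfd2, given above, was at the other end. Among 14 regulators of Arf and COPI (median 0.04), Arfip2 stood at 7.59 and 10.8 RPKM (143%) and Arfip1, which like it binds active Arf, at 17.2 and 13.3 RPKM (77.5%). Of the 4 retrieval receptors (median -0.03), Rer1 stood at 60.1 and 49.9 RPKM (83.0%) and Kdelr2, which returns ER proteins with a KDEL tail, at 60.4 and 67.8 RPKM (112%). Among 21 tethers and golgins (median 0.03), Golga5 stood at 14.2 and 19.3 RPKM (136%) and Cog7 at 6.47 and 8.29 RPKM (128%). Of 15 SNARE genes (median 0.04), Stx5a stood at 30.4 and 24.6 RPKM (81.0%) and Use1 at 15.1 and 12.5 RPKM (82.9%). The 7 CREB3 and ATF6 family genes and their proteases, factors known to switch on coat and ER genes, had the lowest median, -0.10. Creb3l2 stood there at 17.9 and 13.7 RPKM (76.9%) and Creb3l4 at 1.05 and 1.76 RPKM (168%, 141% to 202%). The difference of Creb3l4 was 0.43, but 0.70 with 0.1 added in place of 1, which is past 1.5-fold. It was 0.61, also past 1.5-fold, with both libraries scaled to 1000000 summed RPKM. That scaling raises every value, as the libraries summed to 262771 and 267880 RPKM, so the added 1 weighs less there too.

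Promoter windows were searched for elements bound by those factors. RefSeq windows from 250 bases before to 50 after a start matched 66 of the 80 genes (82.5%). The following were searched on both strands: the ER stress element ERSE (CCAAT, 9 bases, CCACG), ERSE-II (ATTGG, 1 base, CCACG), the unfolded protein response core TGACGTGG, its inner letters ACGTG, and the cyclic AMP response element TGACGTCA. The core TGACGTGG lay in 6 of the 66 (9.09%), against 0.714% of all 27025 genes with a window. It was held by Arf1, Copb1, Copb2, Sec16b, Sec23a and Sec24d. The shorter ACGTG, which the core contains, lay in 39 (59.1%) against 21.8% of all genes. ERSE and ERSE-II lay in none of the 66 (0.137% and 0.0444% of all genes), and TGACGTCA in 1, Cope (2.03% of all genes).

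Among the 8470 tested genes with a window, 1.07% held TGACGTGG and 30.5% held ACGTG. The matching members are the 62 that were measured and have a window, of which 5 held TGACGTGG and 38 held ACGTG. As only 78.0% of the tested genes have a window, that second comparison is incomplete. The core is shown in the 5 expressed genes that hold it, with 10 bases on either side, on the gene's strand in GRCm38.p6, and capitals mark the core or its reverse complement. The windows are chr11:59228229-59228256 (minus strand) for Arf1, chr3:123267460-123267487 (plus) for Sec24d, chr7:114254691-114254718 (minus) for Copb1, chr9:98563714-98563741 (plus) for Copb2 and chr12:59011994-59012021 (minus) for Sec23a.
Arf1: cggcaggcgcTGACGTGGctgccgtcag
Sec24d: cccgggcgccTGACGTGGcactagcaac
Copb1: ccgcccccttCCACGTCAgccaaggact
Copb2: cccggaagttCCACGTCAgtgggttggc
Sec23a: tcctccccttTGACGTGGcagaggcggc

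The genes with this core did not share a difference. Arf1 was at 0.43 and Sec24d at 0.33, Copb2 at 0.17, Sec23a at 0.03 and Copb1 at -0.07, and Sec16b was listed at 0 in both libraries. Their median was 0.17 over 5 genes, against 0.06 over the measured genes without the core, and 0.33 over 3 genes against 0.06 when only the bases before the start were searched. For ACGTG the medians were 0.08 over the 38 measured genes with it and -0.01 over those without, but 0.06 and 0.07 in that shorter window. A match to these letters is a description of the sequence and says nothing of binding.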

How the data were processed

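RNA of 2 samples, 1 per group by their titles, was measured. The authors' deposited table gives RPKM for 26127 rows, per the file headers; TopHat and mm9 are named in the submitters' processing notes. The counting tool, annotation, strand use and handling of multiply mapped reads: not given in the sources used here. The authors' deposited list of 2099 genes has log2 values, log2 differences and p-values (largest p 0.0750), and every entry was joined by position.

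Differences are of log2(RPKM + 1), a scale that understates changes of low genes. Genes averaging under 1 RPKM were not compared; of a repeated symbol the row with the highest mean was used, and 1 small RNA feature was left out. Calls are by size only, since 1 library per group allows no test. Depth came from genes spanning under 3000 bp, as the depth at which RPKM times length most often gave nearly whole reads. It was then refined on larger read numbers. At the depth found, whole reads within 0.002 reads plus 3e-07 of the value were met in 831 control and 885 depleted cases. These are 39.7% and 40.0% of those above 0.5 reads. Intervals use the least whole reads giving both values at 1 length up to 30000 bp, within 0.0002 reads plus the same share. The 1.5-fold calls and the depth search were tested on simulated reads with counting error only (Python 3.11.15, pandas 2.3.3, scipy 1.17.1). The intervals, motif search, shared stretches and neighbours were not part of that simulation.

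Members and lists were chosen with earlier results of these data known. Of 114 list entries 110 matched by symbol, 3 by synonym and 1 by neither. Named were members past 1.5-fold, the extremes and the highest level of each role group, others within a described group, and up to 4 genes per related list. Alternatives were other pseudocounts, scalings, filters and repeated rows. Replication of the libraries is absent, so leaving out a replicate was not possible.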

Additional observations from a re-analysis of the deposited data

How the results depend on the processing

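No paired analysis was possible because each group has 1 library. Under pseudocounts of 0.1 and 0.5 RPKM, both scalings, no filter, a mean of at least 5 RPKM and every row of a symbol, 1 gene (Copz1) stayed at least 1.5-fold higher, 0 were 1.5-fold lower and 0 passed 2-fold. Setting the median of all genes to 0 lowered every difference by 0.05 and turned 9 of the 75 signs. Those of Sec23a, Sec24b and Sar1a of the COPII coat were among them. The medians of 3 role groups then fell below 0 (SRP and translocon -0.00, TRAPP -0.04, lectin receptors -0.02). The median difference, TRAP and signal peptidase, was then -0.0856, and the median difference, SNARE Sec22, was 0.0445. Scaling both libraries to equal summed RPKM turned 7 signs and put TRAP and signal peptidase at -0.0652, TRAPP at -0.02 and the lectin receptors at -0.00. With Srp54 counted once, chosen after seeing the data, the SRP and translocon median was 0.10. Of the 4 genes in the authors' deposited table, 2 have p of at most 0.05 and 1 of at most 0.01. The shares of all genes at these limits were not computed. With the bases before the start only, 4 of the 66 promoters hold TGACGTGG (6.06%, against 0.603% of all genes). In that window 31 hold ACGTG (47.0%, against 18.5% of all genes). Counting intervals are widest for scarce genes (Tmed6, on 4 and 11 reads, 68.6% to 997% of control; Creb3l4, 141% to 202%; Copz2, 111% to 136%). The spread between cultures is unknown.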
